A study of Homo sapiens with 12 samples.

Results

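The transcripts of vimentin and of 9 keratins were followed in HK2 cells: VIM, KRT7, KRT8, KRT10, KRT18, KRT19, KRT34, KRT80, KRT81 and KRT86. These 10 genes were taken by symbol from the 62703 Ensembl identifiers in the deposited tables. HK2 is an immortalised line of human proximal tubule epithelium. The study made 12 RNA libraries, 3 for each of its 4 groups. NG cells were kept in 5.5 mM glucose and received a control vector, and HG cells were exposed to 50 mM glucose. The study's results name mannitol for the NG medium, where its methods and the labels give 5.5 mM glucose alone, so whether NG was matched to HG in osmolarity is unclear. The si-FGF9 group was transfected with a small interfering RNA against FGF9 at 5.5 mM glucose. The HG+OE-FGF9 group received a viral vector for overexpression of FGF9 at 50 mM glucose, which the labels and methods call lentiviral and the study's results adenoviral. No non-targeting small interfering RNA is described for these cells, so transfection and knockdown cannot be told apart in si-FGF9 versus NG. A control vector is described for NG but not for HG. In HG versus NG, vector and glucose therefore cannot be told apart, nor can viral transduction and FGF9 in HG+OE-FGF9 versus HG. The 3 planned comparisons, HG with NG, si-FGF9 with NG and HG+OE-FGF9 with HG, are given in that order throughout. They ask what high glucose, a knockdown of FGF9 (fibroblast growth factor 9), and FGF9 overexpression under high glucose do to tubular cells, in a study of epithelial-mesenchymal transition. All groups are 1 cell line, and nothing states that the libraries of a group came from separate cultures, so the p-values measure only the spread between these libraries, which may be technical.

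Keratins are the intermediate filament proteins of epithelial cells, and a keratin filament is built from pairs of 1 acidic type I and 1 basic type II chain. KRT8 and KRT18 form the usual pair of simple epithelia such as the kidney tubule, with KRT7 as a further type II and KRT19 as a further type I chain. Vimentin is a type III intermediate filament protein of mesenchymal cells that cultured epithelial cells often make as well, and a shift from keratins to vimentin is commonly read as part of epithelial-mesenchymal transition. Of the other keratins here, KRT10 is known from the upper layers of the epidermis, KRT34, KRT81 and KRT86 are hair keratins, and KRT80 is an epithelial type II keratin.

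The positions follow GENCODE release 29 on GRCh38, which may differ from the annotation the authors used. VIM (ENSG00000026025) lies on the plus strand at chr10:17228259-17237593. The type II keratins lie on chromosome 12, with KRT80 (ENSG00000167767, minus strand) at chr12:52168996-52192000 and KRT7 (ENSG00000135480, plus strand) at chr12:52232520-52252186. KRT86 (ENSG00000170442, plus strand) at chr12:52249300-52309163 spans KRT81 (ENSG00000205426, minus strand) at chr12:52285913-52291534. KRT8 (ENSG00000170421, minus strand) lies at chr12:52897187-52949954. KRT18 (ENSG00000111057, plus strand), at chr12:52948871-52952901, is the type I gene that sits next to its partner rather than on chromosome 17. KRT10 (ENSG00000186395) at chr17:40818117-40822595, KRT34 (ENSG00000131737) at chr17:41377650-41382403 and KRT19 (ENSG00000171345) at chr17:41523617-41528308 are on the minus strand.

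Several of these genes share sequence with other genes, so that reads could be divided between them. In the longest transcript of KRT81, 44.6% of the 50-base words also occurred in transcripts of other genes, and KRT86 alone held 38.4%. The share was 40.5% for KRT86, 33.4% for KRT18, 22.1% for KRT8 and 11.4% for KRT34. It was 10.8% for KRT7 and 7.80% for VIM, and it was under 2% for KRT19, KRT10 and KRT80. Words were matched on both strands, so these shares include overlaps with genes on the opposite strand. For KRT7, the antisense gene KRT7-AS alone held 10.4%. KRT18 shared words with 42 other genes and KRT8 with 37, among them many processed pseudogenes. The exons of KRT8 and KRT18 overlap by 525 bases on opposite strands, those of VIM and VIM-AS1 by 641 and those of KRT10 and KRT10-AS1 by 56. The sources used here do not state whether the libraries kept strand, so reads from these stretches cannot be assigned to 1 of the 2 genes. The values of KRT81 and KRT86, and in part those of KRT8 and KRT18, are uncertain for this reason.

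Promoter sequence from RefSeq (GRCh38.p14) was at hand for 4 of the 10 genes. Those of KRT10 and VIM are shown, since these 2 genes differed most between HG+OE-FGF9 and NG in the values as deposited, in opposite directions. Each is the 250 bases before the gene start, read along the gene's strand, from chr17:40822615-40822864 for KRT10 and chr10:17227991-17228240 for VIM, with motif matches in capitals.
KRT10: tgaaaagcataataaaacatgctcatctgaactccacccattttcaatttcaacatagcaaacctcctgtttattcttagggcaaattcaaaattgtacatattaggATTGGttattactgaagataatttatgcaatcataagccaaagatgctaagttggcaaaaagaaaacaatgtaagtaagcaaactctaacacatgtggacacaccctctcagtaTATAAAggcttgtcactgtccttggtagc
VIM: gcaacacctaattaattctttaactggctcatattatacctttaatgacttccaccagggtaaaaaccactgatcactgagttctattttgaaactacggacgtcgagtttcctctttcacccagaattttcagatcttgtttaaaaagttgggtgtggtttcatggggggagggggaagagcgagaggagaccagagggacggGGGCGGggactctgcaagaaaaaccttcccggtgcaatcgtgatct
Both strands were searched for the letters of a TATA box (TATAAA), then of a CCAAT box (CCAAT), then of a GC box (GGGCGG) and of an AP-1 site (TGANTCA). The KRT10 promoter held the TATA box letters at position -29, counted from the gene start, and those of the CCAAT box on the reverse strand, as ATTGG, at -143. The VIM promoter held those of the GC box at -46. KRT34 held the TATA box letters at -31, and KRT8 held none of the 4. The KRT8 window, chr12:52926470-52926719, lies within the GENCODE span of KRT8 given above, so it precedes a different start of the gene. The KRT34 window, chr17:41382307-41382556, overlaps the GENCODE span of KRT34 in part, so its -31 is counted from a start inside that span. Of 35116 RefSeq promoters, 10.7% held the TATA box letters, 32.0% those of the CCAAT box, 42.6% those of the GC box and 6.57% those of the AP-1 site. A match describes letters in this window and no binding.

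Values are TPM, transcripts per 1000000 transcripts, a unit relative to transcript length. TPM keep no record of depth, so the depth of the libraries and the counting error are unknown. The test was limma on the log2(TPM + 1) scale, with all 12 libraries in 1 fit and 14639 genes that reached 1 TPM in at least 3 libraries. A gene was called higher or lower where its log2 fold change was at least 1 in size and its unadjusted p was under 0.01, and "rose" and "fell" are kept for called genes. Adjusted p are Benjamini-Hochberg values over all genes tested. A fold change on this scale understates the change of genes with low TPM. All genes together had a median log2 fold change of -0.39, -0.79 and -0.13 in the 3 planned comparisons. Split by GC content into 10 classes of equal size, the class lowest in GC had medians of -1.22, -1.79 and -0.36 and the class highest in GC 0.30, 0.20 and 0.05. Values are therefore given as deposited, after a spline correction for GC content within each library, and after median-of-ratios scaling, which sets the median of all genes near 0. FGF9 was listed at 0 TPM in all 9 NG, HG and si-FGF9 libraries and at 3.34, 4.03 and 3.82 TPM in HG+OE-FGF9, so the labels of si-FGF9 could not be checked on it. Of 14 renal tubule markers, 8 reached 1 TPM in a library, among them PAX8 and GGT1, while LRP2, CUBN and ANPEP, which define the proximal tubule, stayed at or under 0.26 TPM. In bulk RNA, fewer cells of a type and less RNA per cell cannot be told apart.

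VIM was the most abundant of the 10 transcripts in all 12 libraries, ranking between 55th and 150th of all identifiers. KRT8, KRT18 and KRT19 came next, with library values between 210.7 and 678 TPM. KRT8 ranked between 207th and 300th, KRT19 between 281st and 506th, and KRT18 between 292nd and 518th. KRT7 lay between 40.7 and 84.4 TPM, KRT10 between 16.7 and 45.6 and KRT80 between 8.06 and 28.8. The hair keratins were scarce, with KRT81 at 4.72 to 11.1 TPM, KRT34 at 0.27 to 3.20 and KRT86 at 0.26 to 1.12. KRT86 reached 1 TPM in 2 libraries and was not tested, which left 9 genes with a test. The summed TPM of the 9 keratins was 1275 ± 49.0 (SD, n = 3) in NG, 1324 ± 318 in HG, 1223 ± 218 with si-FGF9 and 1232 ± 11.4 with HG+OE-FGF9, so the group means differed by less than the spread within HG or si-FGF9. KRT5 and KRT1, keratins of stratified epithelium, were at 0 in all 12 libraries, and KRT14 lay between 0.14 and 1 TPM.

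**Figure D1:**
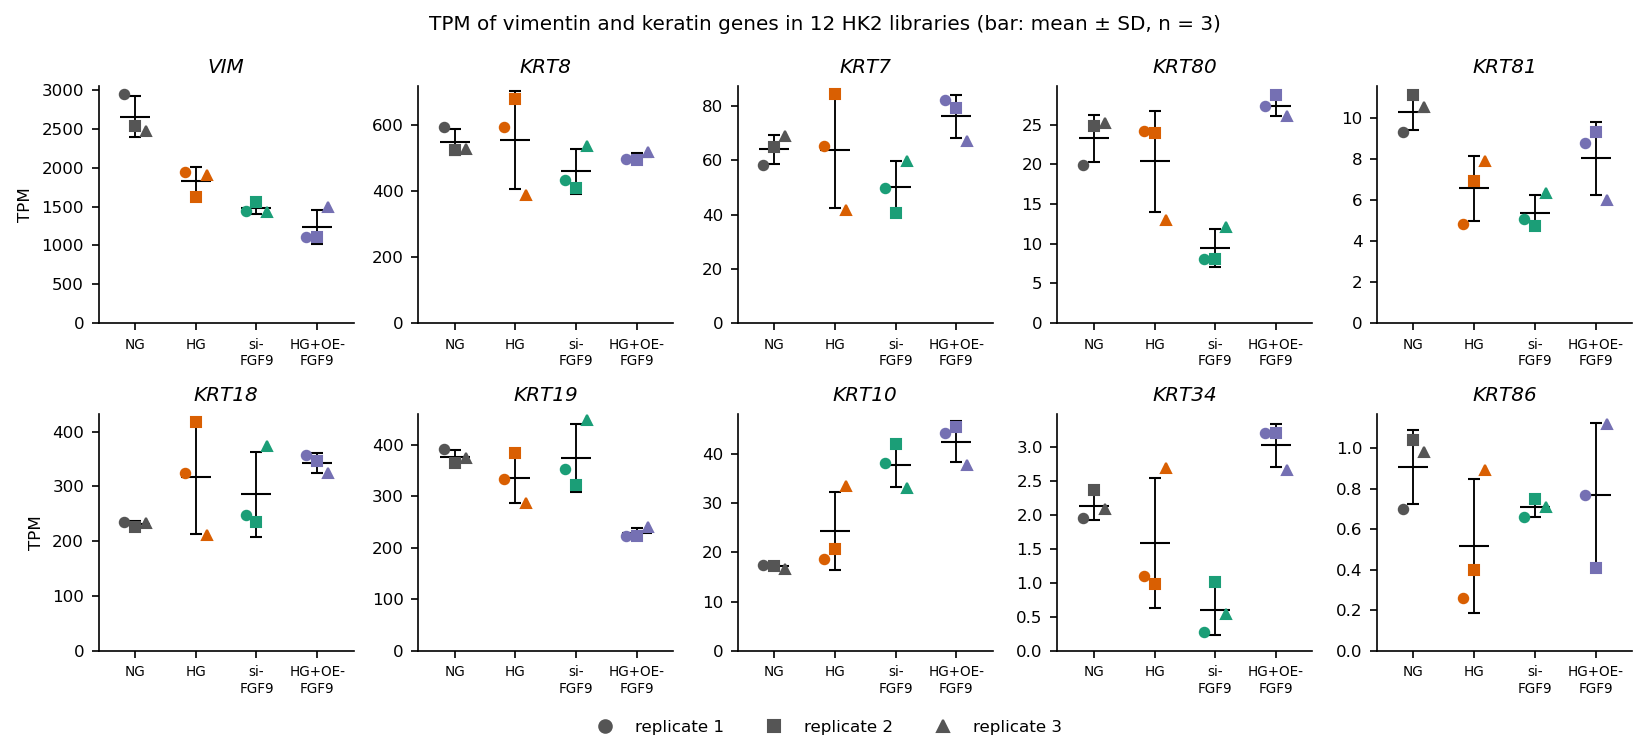
TPM (y axis, linear, from 0) of the 10 genes in the 4 groups (x axis), with 1 point per library shaped by replicate number and bars for mean ± SD (n = 3). VIM lies highest in NG (2656 ± 262) and lowest in HG+OE-FGF9 (1238 ± 222), KRT10 goes the other way (17.2 ± 0.386 and 42.5 ± 4.19), and the HG points of KRT7, KRT8 and KRT18 are spread widely. The VIM order depends on the scaling: after median-of-ratios scaling si-FGF9 versus NG is 0.19 on the log2 scale, against -0.84 as deposited.

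VIM measured 2956, 2539 and 2473 TPM in NG, 1945, 1618 and 1911 in HG, 1445, 1560 and 1427 with si-FGF9, and 1112, 1109 and 1495 with HG+OE-FGF9. Each NG library was above every library of the other 3 groups, HG lay above both si-FGF9 and HG+OE-FGF9 without overlap, and si-FGF9 and HG+OE-FGF9 overlapped. VIM was not called in the 3 planned comparisons, though each had a low adjusted p. Its log2 fold change with HG was -0.54 ± 0.14 (SE, limma, adjusted p = 0.00687), close to the median of all genes. It became -0.06 after the GC correction and -0.03 after median-of-ratios scaling. In si-FGF9 versus NG it was -0.84 ± 0.14 (limma, adjusted p = 0.000159), and the sign turned to 0.01 and 0.19 under the same 2 changes. The value moved least with the scaling in HG+OE-FGF9 versus HG, at -0.57 ± 0.14 as deposited (limma, adjusted p = 0.0236), -0.51 after the GC correction (adjusted p = 0.00391) and -0.43 after median-of-ratios scaling. Between the extremes, HG+OE-FGF9 versus NG, VIM fell by 1.11 on the log2 scale (limma, adjusted p = 5.75e-05), against -0.57 after the GC correction and -0.45 after median-of-ratios scaling, neither of which is a call. VIM-AS1, whose exons overlap those of VIM, had log2 fold changes of -0.92, -1.06 (a call) and 0.12 in the 3 planned comparisons, and 0.20, 0.59 and 0.46 after the GC correction, with no call. The GC content of the longest VIM transcript is 46.9%, the lowest of the 10 genes and near the median of 48.3% over the tested genes.

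Among type II keratins, KRT8, the main partner of KRT18, measured 595, 525 and 527 TPM in NG, 594, 678 and 389 in HG, 432, 409 and 536 with si-FGF9, and 497, 493 and 517 with HG+OE-FGF9. HG held both the highest and the lowest of these values, and every group overlapped HG. The log2 fold changes were -0.02 (95% interval -0.42 to 0.37), -0.26 (-0.66 to 0.13) and -0.10 (-0.50 to 0.30) in the 3 planned comparisons. None had an adjusted p under 0.05, and the sign turned under median-of-ratios scaling in all 3, to 0.49, 0.77 and 0.04. After the GC correction the first 2 were 0.01 and 0.02.

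KRT7, a type II keratin of simple ducts and glands, measured 58.4, 64.8 and 68.9 TPM in NG, 65.3, 84.4 and 41.6 in HG, 49.8, 40.7 and 59.8 with si-FGF9, and 82.3, 79.4 and 67.2 with HG+OE-FGF9. The group order was HG+OE-FGF9, NG, HG and si-FGF9, and no neighbours in that order differed beyond their spread (limma, adjusted p between 0.31 and 0.85). In the 3 planned comparisons the log2 fold changes were -0.06, -0.36 and 0.31. After the GC correction they were -0.32, -0.52 and 0.26, and the value in si-FGF9 versus NG had an adjusted p of 0.0201 (limma). After median-of-ratios scaling they were 0.45, 0.66 and 0.44, where the first 2 change sign. The si-FGF9 libraries lay below all HG+OE-FGF9 libraries, with a log2 fold change of -0.61 ± 0.23 (limma, adjusted p = 0.0706).

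KRT80 measured 19.9, 24.9 and 25.2 TPM in NG, 24.2, 23.9 and 13.1 in HG, 8.12, 8.06 and 12.2 with si-FGF9, and 27.4, 28.8 and 26.1 with HG+OE-FGF9. The 3 si-FGF9 libraries were below all others, and HG replicate 3 was next to them. KRT80 fell in si-FGF9 versus NG by 1.23 on the log2 scale (SE 0.24, limma, adjusted p = 0.000532), -0.99 after the GC correction and -0.27 after median-of-ratios scaling, and neither of these is a call. It also fell in si-FGF9 versus HG (-1.01, limma, adjusted p = 0.00977), with -0.76 and -0.53 under these changes. Against HG+OE-FGF9 it fell by 1.46 (limma, adjusted p = 0.00148), with -1.16 after the GC correction, still a call, and -1.12 after median-of-ratios scaling. Between HG and NG, and between HG+OE-FGF9 and HG, the values were -0.23 ± 0.24 and 0.46 ± 0.24, with adjusted p of 0.45 and 0.22.

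KRT81, a hair keratin, measured 9.29, 11.1 and 10.5 TPM in NG, 4.83, 6.92 and 7.90 in HG, 5.05, 4.72 and 6.33 with si-FGF9, and 8.74, 9.30 and 6.0 with HG+OE-FGF9. NG lay above HG and si-FGF9 without overlap and met HG+OE-FGF9 at its lower end. The log2 fold change was -0.60 ± 0.21 in HG (limma, adjusted p = 0.0347) and -0.83 ± 0.21 in si-FGF9 (limma, adjusted p = 0.00394) versus NG. Neither was called. After the GC correction they were -0.83 and -0.95, while after median-of-ratios scaling they were -0.14 and 0.08. KRT86, which shares much of its sequence, measured 0.70, 1.04 and 0.98 TPM in NG, 0.26, 0.40 and 0.89 in HG, 0.66, 0.75 and 0.71 with si-FGF9, and 0.77, 0.41 and 1.12 with HG+OE-FGF9.

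Among type I keratins, KRT18 measured 236, 226 and 232 TPM in NG, 325, 419 and 210.7 in HG, 248, 234 and 374 with si-FGF9, and 358, 347 and 324 with HG+OE-FGF9. The NG and HG+OE-FGF9 libraries were tight, the HG libraries were widely spread, and si-FGF9 replicate 3 lay well above the other 2 of its group. The log2 fold changes were 0.40 ± 0.23, 0.27 ± 0.23 and 0.16 ± 0.23 in the 3 planned comparisons (limma, adjusted p = 0.17, 0.31 and 0.66). After the GC correction they were 0.46, 0.59 (limma, adjusted p = 0.026) and 0.10. After median-of-ratios scaling they were 0.91, 1.30 (a call) and 0.30. KRT18 was higher in HG+OE-FGF9 than in NG without overlap, by 0.56 ± 0.23 (limma, adjusted p = 0.0455), 0.56 after the GC correction and 1.22 after median-of-ratios scaling.

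KRT19, a type I keratin without a tail domain, measured 392, 364 and 374 TPM in NG, 334, 385 and 288 in HG, 353, 323 and 449 with si-FGF9, and 222, 223 and 241 with HG+OE-FGF9. The HG+OE-FGF9 libraries lay below the other 9, which overlapped one another. The log2 fold change in HG+OE-FGF9 versus HG was -0.54 ± 0.14 (limma, adjusted p = 0.0351), -0.59 after the GC correction and -0.40 after median-of-ratios scaling, under the size needed for a call. Against NG it was -0.72 ± 0.14 (limma, adjusted p = 0.000923), -0.99 after the GC correction and -0.07 after median-of-ratios scaling. In HG and si-FGF9 versus NG it was -0.18 ± 0.14 and -0.02 ± 0.14 (limma, adjusted p = 0.33 and 0.90). These became -0.39 (adjusted p = 0.0188) and -0.11 after the GC correction and turned to 0.34 and 1.01 after median-of-ratios scaling.

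KRT10 measured 17.5, 17.3 and 16.7 TPM in NG, 18.7, 20.8 and 33.5 in HG, 38.1, 42.1 and 33.1 with si-FGF9, and 44.2, 45.6 and 37.8 with HG+OE-FGF9. NG was lowest in all 3 libraries, si-FGF9 and HG+OE-FGF9 overlapped at the top, and HG replicate 3 lay among the si-FGF9 values. KRT10 rose in si-FGF9 versus NG by 1.09 ± 0.20 on the log2 scale (limma, adjusted p = 0.000381), and the value was 1.63 after the GC correction and 2.07 after median-of-ratios scaling. It rose by 1.26 ± 0.20 in HG+OE-FGF9 versus NG (limma, adjusted p = 0.000209), with 1.43 and 1.87 under these changes. In HG versus NG it was 0.44 ± 0.20 (limma, adjusted p = 0.0872) and not called, 0.66 after the GC correction (adjusted p = 0.0288), and without HG replicate 3 it was 0.19. In HG+OE-FGF9 versus HG it was 0.82 ± 0.20 (limma, adjusted p = 0.0245) and not called, while without HG replicate 3 it was called, at 1.07. KRT10-AS1, the gene on the opposite strand, had log2 fold changes of 0.33, 0.34 and 0.63 in the 3 planned comparisons and was not called, whereas after the GC correction it was called higher in the first 2, at 1.40 and 1.94, and measured 0.94 in the last.

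KRT34, a hair keratin, measured 1.95, 2.36 and 2.08 TPM in NG, 1.10, 0.98 and 2.69 in HG, 0.27, 1.01 and 0.54 with si-FGF9, and 3.20, 3.20 and 2.66 with HG+OE-FGF9. The si-FGF9 libraries lay below NG and HG+OE-FGF9 without overlap, and HG spanned most of the range. KRT34 fell by 1.35 in si-FGF9 versus HG+OE-FGF9 (SE 0.25, limma, adjusted p = 0.0031), with -0.998 after the GC correction and -1.24 after median-of-ratios scaling. In si-FGF9 versus NG it was -0.99 ± 0.25 (limma, adjusted p = 0.00353), just short of a call, and after the 2 changes of scaling it was -0.58 and -0.45. The other planned comparisons gave -0.33 ± 0.25 in HG versus NG and 0.69 ± 0.25 in HG+OE-FGF9 versus HG (limma, adjusted p = 0.29 and 0.0987).

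Across the 9 genes tested, HG versus NG gave 0 calls, where 24.4% of all genes were called, and limma gave 3 of the 9 an unadjusted p under 0.05, as it did 55.7% of all genes. With an adjusted p under 0.05 and no fold threshold, 2 were lower (VIM and KRT81), where 49% of all genes passed and 40.5% were lower. The GC correction also left 0 calls, against 6.84% of all genes. In si-FGF9 versus NG, 1 gene rose (KRT10) and 1 fell (KRT80), where 47.6% of all genes were called, 5.36% higher and 42.2% lower. At an adjusted p under 0.05, 1 was higher and 4 were lower, against 69.3% of all genes, 11.6% higher and 57.7% lower. After the GC correction KRT10 alone was called, against 24.3% of all genes, and after median-of-ratios scaling 3 were called higher (KRT10, KRT18 and KRT19) and 0 lower, against 18.9% and 17.8% of all genes. In HG+OE-FGF9 versus HG, 0 were called against 5.61% of all genes, limma gave 4 an unadjusted p under 0.05, as it did 28.2% of all genes, and at an adjusted p under 0.05 KRT10 was higher and VIM and KRT19 were lower, against 9.53%, split into 4.82% higher and 4.71% lower. After the GC correction 0 were called, against 5.21%. The median log2 fold change of the 9 was -0.18, -0.36 and 0.26 in the 3 comparisons, beside -0.39, -0.79 and -0.13 for all genes. The first 2 comparisons share the NG libraries, and the first and the last share the HG libraries.

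The remaining pairs of groups order the levels. In HG+OE-FGF9 versus NG, 2 of 9 were called (KRT10 higher, VIM lower), where 39.7% of all genes were, 7.01% higher and 32.7% lower. In si-FGF9 versus HG, 1 was called (KRT80, lower) against 11.1%, or 9.67% lower, and in si-FGF9 versus HG+OE-FGF9, 2 were called (KRT34 and KRT80, lower) against 9%, or 7.36% lower. Among neighbours in the order of group means, KRT80 in HG and si-FGF9 was the 1 pair with a call. VIM in NG and HG, KRT10 in si-FGF9 and HG, and KRT19 in HG and HG+OE-FGF9 had an adjusted p under 0.05 without a call.

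**Figure D2:**
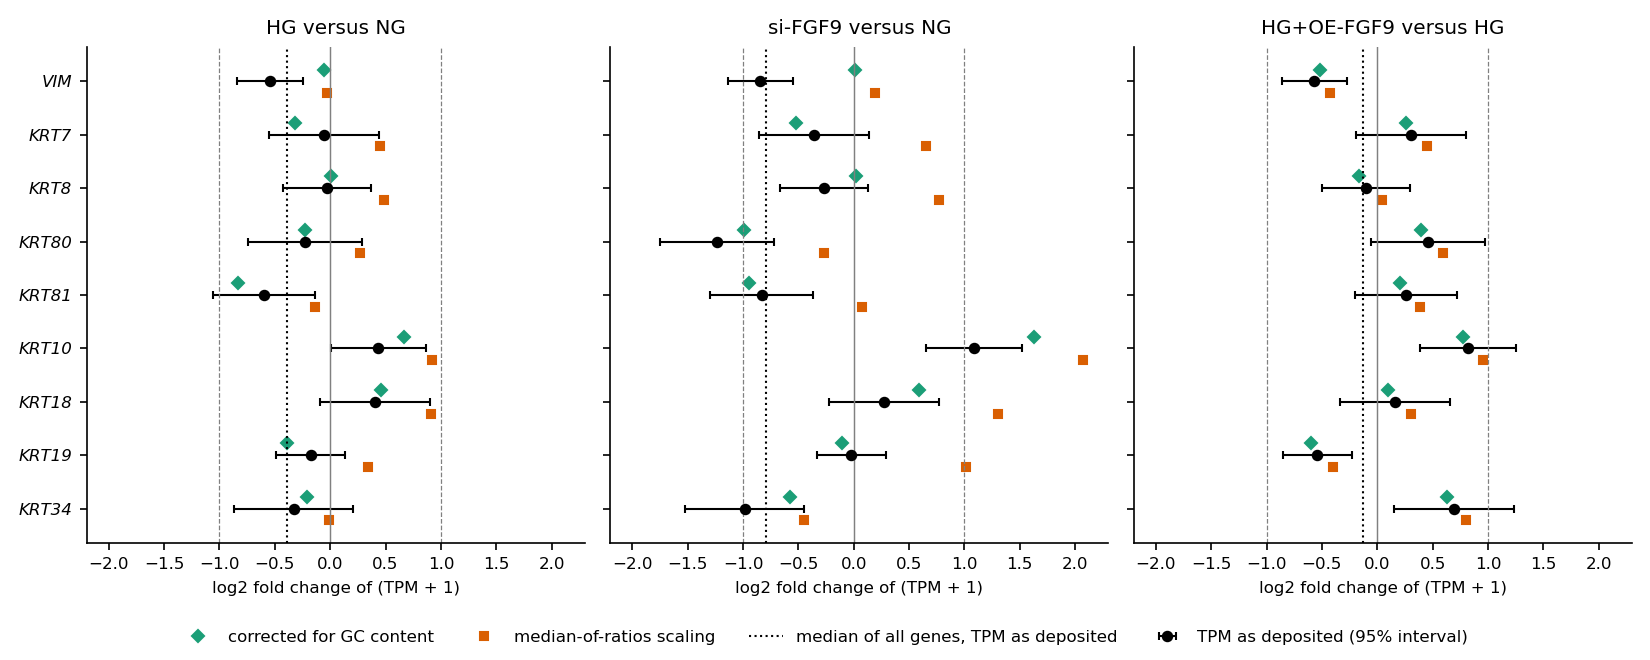
Log2 fold changes of (TPM + 1) of the 9 tested genes in 3 comparisons (x axis), with black circles and 95% intervals for TPM as deposited, green diamonds after the GC correction and orange squares after median-of-ratios scaling. Dashed lines mark a log2 fold change of 1 in either direction and the dotted line the median of all genes (-0.39, -0.79 and -0.13). KRT10 lies right of 0 under all 3 scalings, whereas VIM lies left of 0 under all 3 in HG+OE-FGF9 versus HG but moves to 0.01 and 0.19 in si-FGF9 versus NG.

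Ratios within a library do not depend on how the library was scaled, although they can still follow GC content. VIM to KRT18 was 12.5, 11.2 and 10.6 in NG, 5.99, 3.87 and 9.07 in HG, 5.83, 6.66 and 3.81 with si-FGF9, and 3.10, 3.20 and 4.62 with HG+OE-FGF9. The 3 NG values were above the other 9, and HG overlapped both si-FGF9 and HG+OE-FGF9. The difference in log2 ratio was -0.94 ± 0.36 (SE) in HG versus NG and -1.11 ± 0.25 in si-FGF9 versus NG, each with p = 0.1 in an exact two-sided permutation test, the smallest that 3 against 3 libraries can give. In HG+OE-FGF9 versus HG it was -0.73 ± 0.40 (exact permutation p = 0.2). After the GC correction the differences were -0.51, -0.58 and -0.61, and with KRT8 in place of KRT18 they were -0.52, -0.58 and -0.47. With KRT8, HG overlapped NG, since HG replicate 3 (4.92) lay above 2 NG libraries (exact permutation p = 0.3, and 0.1 and 0.2 in the other comparisons). VIM made up 67.5% ± 1.36 of the summed TPM of the 10 genes in NG, 58.2% ± 8.0 in HG, 54.9% ± 5.21 with si-FGF9 and 49.9% ± 4.45 with HG+OE-FGF9 (SD, n = 3).

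The ratio of the partners KRT8 and KRT18, examined after the data were seen, was 2.52, 2.32 and 2.27 in NG, 1.83, 1.62 and 1.84 in HG, 1.74, 1.75 and 1.43 with si-FGF9, and 1.39, 1.42 and 1.60 with HG+OE-FGF9. NG stood above every other group, and HG stood above HG+OE-FGF9, without overlap. The difference in log2 ratio was -0.43 ± 0.08 (SE) in HG versus NG, -0.54 ± 0.11 in si-FGF9 versus NG and -0.26 ± 0.09 in HG+OE-FGF9 versus HG, each at the smallest exact permutation p of 0.1. The GC contents of the 2 transcripts are 56.2% and 55.7%, and after the GC correction the differences were -0.45, -0.57 and -0.26. Taken singly, neither KRT8 nor KRT18 had an adjusted p under 0.05 in these comparisons as deposited. In si-FGF9 versus NG, KRT18 did after the GC correction (0.59, limma, adjusted p = 0.026). It was also called there after median-of-ratios scaling, at 1.30. KRT8 transcripts held 16.0% of the 50-base words of KRT18, so reads could be divided between the 2 genes. The GC correction does not address this. The ratios of KRT19 to KRT18 and of type II to type I keratins were also not planned, and no GC-corrected value was computed. KRT19 to KRT18 was 1.63 ± 0.0278 in NG, 1.10 ± 0.232 in HG, 1.33 ± 0.118 with si-FGF9 and 0.669 ± 0.0658 with HG+OE-FGF9 (SD, n = 3). All type II keratins together stood to all type I keratins at 1.03 ± 0.0229 in NG, 0.941 ± 0.0863 in HG, 0.755 ± 0.0321 with si-FGF9 and 0.997 ± 0.0209 with HG+OE-FGF9, and the si-FGF9 libraries lay below the other 9.

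**Figure D3:**
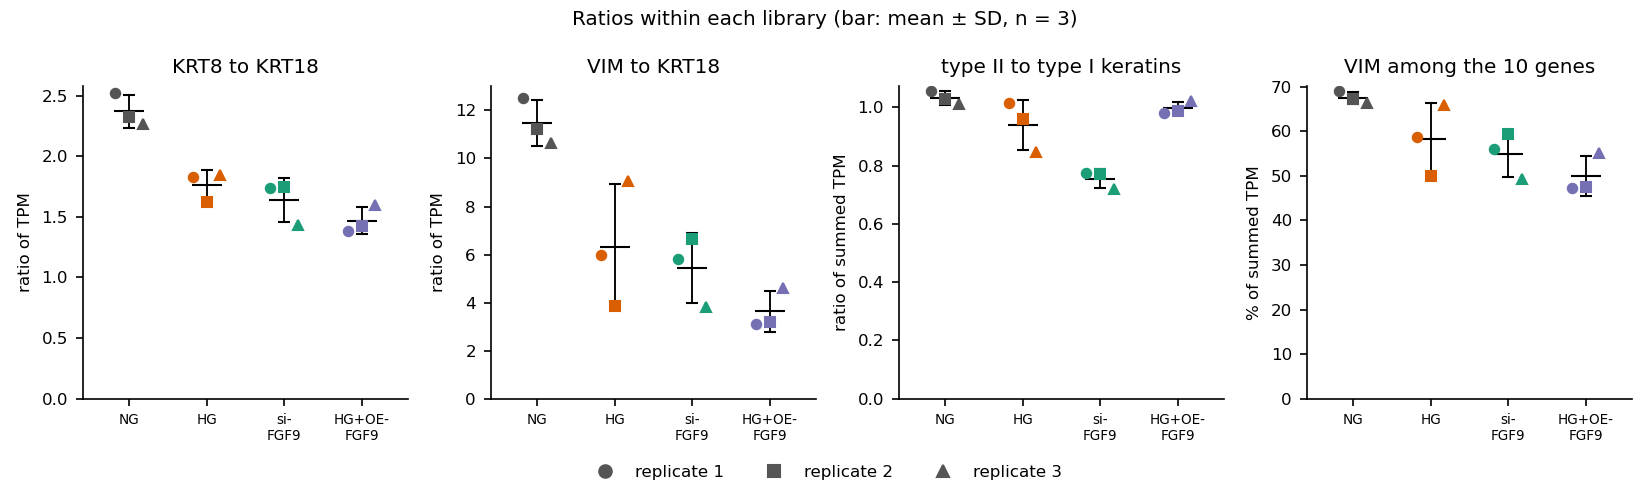
Ratios of TPM within each library (y axes, linear, from 0) in the 4 groups (x axis): KRT8 to KRT18, VIM to KRT18, summed type II to summed type I keratins, and VIM as a percentage of the summed TPM of the 10 genes. Points are libraries and bars are mean ± SD (n = 3), and the 3 NG libraries are highest for KRT8 to KRT18 (2.27 to 2.52) and VIM to KRT18 (10.6 to 12.5).

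Several keratins had their highest or lowest value of a group in the same library. HG replicate 3 was the lowest of its group for KRT7, KRT8, KRT18, KRT19 and KRT80 and the highest for KRT10, KRT34, KRT81 and KRT86. In si-FGF9, replicate 3 was the highest for KRT7, KRT8, KRT18, KRT19, KRT80 and KRT81 and the lowest for KRT10 and VIM. Without HG replicate 3, KRT18 in HG versus NG was 0.67 rather than 0.40, and KRT7, KRT8 and KRT80 turned from -0.06, -0.02 and -0.23 to 0.21, 0.21 and 0.05. Among the 9 tested genes, the profiles over the 12 libraries that were most alike were those of KRT7 and KRT8, with a root mean square distance of 0.227 on the centred log2(TPM + 1) scale. KRT7 and KRT18 came next at 0.250 and KRT8 and KRT18 at 0.274, and KRT10 and KRT80 were the furthest apart at 0.947.

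Against 6202 genes with a mean TPM of at least 10, the profile of VIM was most like those of UBE2R2 (distance 0.0761), PCOLCE2 (0.0871) and BACE2 (0.0938). The nearest to KRT8 were SLC25A3 (0.0956), ERBB2 (0.108) and EEF1A2 (0.110), and to KRT18 MED29 (0.110), PIH1D1 (0.110) and BPHL (0.118). KRT7 was closest to FPGS (0.125), CORO1B (0.132) and RAB32 (0.147). KRT81, set against 6203 genes, was closest to MIDN (0.157), DVL3 (0.195) and CRELD1 (0.201). Each of these distances is smaller than that between any 2 of the 9 genes. They are the smallest found among 6202 or 6203 candidates, and a larger pool gives smaller minima. The comparison therefore does not show whether the 9 genes share a profile. All points share the same 12 libraries and their scaling.

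Of 46 other keratins, 4 were tested (KRT15, KRT16, KRT78 and KRT79) and 0 were called in the 3 planned comparisons. Of all genes, 24.4%, 47.6% and 5.61% were called. KRT15, the most abundant, averaged 9.38 TPM in NG, 7.60 in HG, 12.3 with si-FGF9 and 6.78 with HG+OE-FGF9. For si-FGF9 versus NG, limma gave 2 of the 4 an unadjusted p under 0.05 (71.4% of all genes), KRT79 at 0.74 (adjusted p = 0.00479) and KRT16 at 0.56 (adjusted p = 0.0166), and in the other 2 comparisons 0. Of 15 other intermediate filament genes, 10 were tested. In HG versus NG 1 fell, LMNB1 (-1.09), which encodes lamin B1 of the nuclear lamina, where 22.7% of all genes fell. With si-FGF9 versus NG, LMNA, the lamin A/C gene, rose by 1.21, from 108 to 252 TPM, and LMNB1 (-2.76), INA (-2.04) and SYNM (-1.33) fell. There, 5.36% of all genes rose and 42.2% fell. In HG+OE-FGF9 versus HG PRPH, encoding peripherin, rose by 1.16, where 5.61% of all genes were called in either direction. LMNB1 (-0.82) was no longer called in HG versus NG after the GC correction and SYNC (1.30) was, SYNM (-0.81) was no longer called in si-FGF9 versus NG, and PRPH stayed called, at 1.11. The median log2 fold change of the 10 was 0.11, -0.68 and -0.11.

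Of 20 genes for proteins that anchor intermediate filaments at desmosomes, hemidesmosomes or other filaments, 16 were tested. In HG versus NG 4 fell and 0 rose, where 22.7% of all genes fell. They were DSG2 (-2.01), DST (-1.39), ITGA6 (-1.21) and DSP (-1.13), which encode desmoglein 2, dystonin, integrin alpha 6 and desmoplakin. In si-FGF9 versus NG 8 fell and 0 rose, where 42.2% of all genes fell, led by DST (-2.50), DSG2 (-2.34), DSP (-2.18) and MACF1 (-1.71). In HG+OE-FGF9 versus HG DST (-1.03) and MACF1 (-1.02) fell, where 2.67% of all genes did, and both overlapped between the groups. The first 2 shares of the list are close to those of all genes. The median log2 fold change of the 16 was -0.72, -0.97 and -0.34, beside -0.39, -0.79 and -0.13 for all genes. Many of these transcripts are low in GC content, and after the GC correction the calls were 0 higher and 1 lower, 1 higher and 2 lower, and 0 in either direction. Of 123 keratin and vimentin pseudogenes, 2 were tested (KRT8P12 and KRT8P36) and neither was called in these comparisons.

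**Figure D4:**
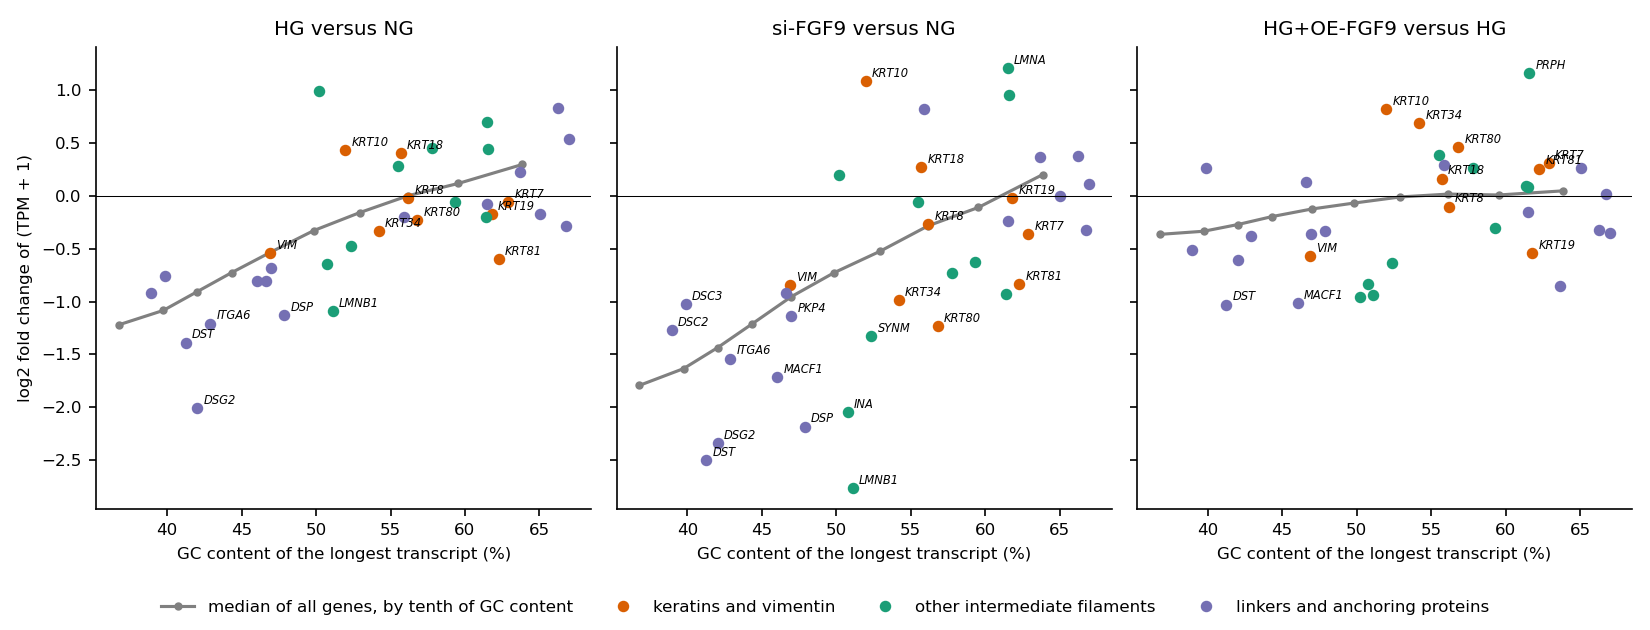
Log2 fold change of (TPM + 1), as deposited (y axis), against GC content of the longest transcript in percent (x axis) in 3 comparisons. Points are tested genes, orange for keratins and vimentin, green for other intermediate filaments and purple for linkers, with called genes and the 9 tested keratins and vimentin named, and the grey line joins the medians of all genes by GC class. In si-FGF9 versus NG, VIM (46.9% GC, -0.84) lies near the grey line and KRT10 (52.0% GC, 1.09) far above it.

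The levels of some cell type markers, given here as deposited only, differed between the groups. The summed TPM of the renal tubule markers was 356 to 395 in NG and 274 to 311 in HG. It was 308 to 348 with si-FGF9 and 138 to 188 with HG+OE-FGF9. Summed TPM of the fibroblast markers, of which 3 of 6 reached 1 TPM, was 62.3 to 89.2 in NG, 17.2 to 40.9 in HG, 11.6 to 21.0 with si-FGF9 and 11.5 to 22.5 with HG+OE-FGF9. LUM, a matrix proteoglycan, made up most of it, while PDGFRA was at 0 in 10 of the 12 libraries. The part of these markers in the order of VIM, which also was highest in NG, was not tested. The 4 endothelial markers stayed at or under 0.1 TPM, and of the 3 leukocyte markers PTPRC and CD3E were at or under 0.07, while CD68, a lysosomal protein that is abundant in macrophages, lay between 108 and 159 TPM in every library. CDH1, the epithelial cadherin, stayed at or under 0.28 TPM in every library. EPCAM averaged 24.0 TPM in NG, 10.9 in HG, 6.63 with si-FGF9 and 6.31 with HG+OE-FGF9. Both belong to a list of 6 simple epithelium markers whose other members are KRT8, KRT18, KRT7 and KRT19. The summed TPM of that list was 1201 to 1312 in NG and 945 to 1570 in HG. With si-FGF9 the sum was 1015 to 1423, and with HG+OE-FGF9 1146 to 1165.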

How the data were processed

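RNA of 12 HK2 libraries was analysed. The deposited values are TPM for 62703 identifiers, given by the authors to 2 decimals, and each library sums to about 1000000. The submitters' processing notes name Bowtie 0.12.2 and the mouse build mm8, whereas the quantification tool and annotation are not given in the sources used here. Read counts were not used here, depth is unknown, and no interval for counting error was given.

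Groups followed the sample labels. Tests were made on the log2(TPM + 1) scale in limma 3.58.1 (R 4.3.3), with a trended prior variance, group as the only term and all 12 libraries, for the 14639 genes that reached 1 TPM in at least 3 libraries. The fold and p thresholds are those of the study. The fit was tested on simulated data. The correction for GC content subtracted a natural spline with 5 degrees of freedom from each library, using the longest GENCODE 29 transcript (96.9% of tested genes). Ratios were tested with exact permutation in Python 3.11.15 with scipy 1.17.1. Alternatives were other filters, a pseudocount of 0.1, 6-library fits, the replicate block, both rescalings, an adjusted p, and leaving out libraries. The 10 genes and the lists of related genes were chosen with earlier results of these data known. All 10 genes are named, and related genes are named where called, up to 4 a list and comparison by size of change, or where mean TPM is above 100, and KRT15, KRT16, KRT78, KRT79, KRT8P12, KRT8P36 and the antisense genes were named after their values were seen.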

Additional observations from a re-analysis of the deposited data

How the results depend on the processing

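Without a filter, with genes at 1 TPM or more in every library, and in fits on 6 libraries, the calls stayed at 0, 2 and 0 in the 3 planned comparisons. With an adjusted p under 0.05 they were 2, 5 and 3. A pseudocount of 0.1 added KRT34 in si-FGF9 versus NG (-1.80). With the GC correction, alone or with the replicate block, 1 gene stayed called in si-FGF9 versus NG. Without HG replicate 3, HG+OE-FGF9 versus HG had 1 call, KRT10 (1.07), and with the GC correction as well it had 1 (1.02) and HG versus NG had 1, KRT81 (-1.05). Combinations of the GC correction with another change were chosen after the data were seen. Leaving out 1 library gave 0 to 0, 2 to 3 and 0 to 1 calls. The third call in si-FGF9 versus NG was KRT34, without NG replicate 1 (-1.03) or si-FGF9 replicate 2 (-1.16).

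Deviations of same-numbered libraries correlated between -0.44 and 0.25. Differently numbered libraries were not set beside them, so whether the replicate numbers pair the libraries was not settled. The fit with the replicate block gave 0, 2 and 0 calls.

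Signs turned under median-of-ratios scaling, in HG versus NG for KRT7 (0.45), KRT8 (0.49), KRT19 (0.34) and KRT80 (0.27), in si-FGF9 versus NG for KRT7 (0.66), KRT8 (0.77), KRT19 (1.01), KRT81 (0.079) and VIM (0.19), and in HG+OE-FGF9 versus HG for KRT8 (0.038). With the GC correction, with or without the block, they turned for KRT8 in HG (0.0069) and si-FGF9 (0.021) and for VIM in si-FGF9 (0.0094) versus NG. KRT8 in HG versus NG was 0.19 with the GC correction and without HG replicate 3, and KRT18 in HG+OE-FGF9 versus HG was then -0.12. Leaving out 1 library spanned 0, in HG versus NG for KRT7 (-0.29 to 0.21), KRT8 (-0.19 to 0.21) and KRT80 (-0.37 to 0.052), in si-FGF9 versus NG for KRT19 (-0.16 to 0.079), and in HG+OE-FGF9 versus HG for KRT8 (-0.34 to 0.064) and KRT18 (-0.11 to 0.39). KRT10 in HG versus NG ranged from 0.19 to 0.59. The log2 ratio of VIM to KRT18 in si-FGF9 versus NG was -0.58 with the GC correction and -0.58 with KRT8 as the keratin, and without 1 library its ranges were -1.25 to -0.63, -1.28 to -0.88 and -1.04 to -0.43 in the 3 planned comparisons. Depth is unknown for TPM, so counting error in the scarce KRT34 and KRT86 could not be set apart from replicate spread. The cause of these differences was not tested.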
